A study of Mus musculus with 18 samples.

Results

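The genes described here are 34 genes of cholesterol and fatty acid synthesis, chosen by name. Of these, 31 had a probe set that maps to that gene alone, out of 22180 genes with such a probe set on the array, and all 31 were among the 16337 genes that passed a filter on low values. Acat2, Idi1 and Scd2 had no probe set of their own and were not analysed here. The members were read as 4 role groups: 5 measured genes of the mevalonate and isoprenoid steps, 11 genes from squalene to cholesterol, 7 genes of sterol control and transport, and 8 genes of fatty acid synthesis.

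Cholesterol is built from acetyl-CoA through mevalonate, isoprenoid units, squalene and lanosterol, and fatty acids are built from the same acetyl-CoA by carboxylation, chain extension and desaturation. Both pathways are controlled by the SREBP transcription factors (genes Srebf1 and Srebf2), which the escort protein SCAP carries out of the endoplasmic reticulum when sterols are scarce and which the INSIG proteins hold back when sterols are abundant. Dividing blood cells draw on both pathways for new membrane.

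RNA was measured on Affymetrix whole-transcript arrays in mouse cells to ask how leukemia cells are eliminated when they are pushed towards reprogramming. Leukemia cells with the MLL-AF9 fusion gene, marked by GFP, came from mice with acute myeloid leukemia (AML), and lineage-negative, Kit-positive, Sca1-positive marrow cells (LSK, rich in normal stem and progenitor cells) were sorted from 4F transgenic mice. Per the protocol in the labels, both kinds of cell carried the 4F transgenes, through which doxycycline (Dox) switches on Oct4, Sox2, Klf4 and c-Myc (together OSKM), so the control cells carried them too, without Dox. The 6 groups were AML Dox (Dox for 24 h in vitro), AML Compound (24 h with a reprogramming mix of VPA, CHIR, 616452 and TCP, small molecules that act on chromatin enzymes and on kinases), AML Control, LSK Dox, LSK Compound and LSK Control, with 3 arrays each. The labels do not give the promoter that drives the transgenes, the age of the mice, the number of leukemias or the time the control cells spent in culture, and no cells without the transgenes were given Dox among these arrays. The arrays of a group are called biological repeats, but nothing in the labels says whether each came from its own mouse or culture. The p-values therefore reflect array-to-array spread, part of which may be technical.

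Expression is given on the log2 scale as made by RMA, a method that corrects background, normalizes the arrays to each other and summarises probes, and a log2 difference of 1 is a doubling. LSK Compound replicate 1 was left out: it correlated with the other arrays at 0.638 to 0.672 over all probe sets, whereas the other 17 arrays correlated at 0.904 or more, and Actb read 4.56 on it against 8.83 to 9.28 on those 17. The fit therefore used 17 arrays, 2 of them for LSK Compound, and counts of members with all 18 arrays are given beside the main ones. Klf4, also a Dox transgene, read 9.21, 9.16 and 9.06 on the AML Dox arrays against 3.12, 3.29 and 3.39 on the AML Control arrays. On the LSK Dox arrays Klf4 read 8.30, 8.15 and 8.18 against 3.95, 3.72 and 3.82 on the LSK Control arrays. Myc was lower, at 4.82, 4.72 and 4.16 on the AML Dox arrays against 8.63, 8.67 and 8.70 on the AML Control arrays. On the LSK Dox arrays Myc read 8.66, 8.66 and 8.89 against 9.19, 9.41 and 9.41 on the LSK Control arrays. Of the 4 OSKM genes, 3 were called higher and 1 lower in AML Dox cells. In LSK Dox cells 1 was called higher and 1 lower. The 2 LSK Compound arrays differed from all other arrays in sex-linked transcripts: the Y-linked gene Eif2s3y read 5.47 and 5.20 on them and at most 2.64 on the 15 other arrays of the fit, and Xist read 7.35 and 7.32 on them against 9.28 to 9.56 on the LSK Control arrays. Kit, by which LSK cells are sorted, read 7.66, 7.76 and 7.72 on the LSK Control arrays, and Ly6a, which encodes Sca1, had no probe set of its own. Hoxa9, a gene that MLL-AF9 keeps active, read 7.71, 7.86 and 7.89 on the AML Control arrays against 5.73, 5.35 and 5.71 on the LSK Control arrays.

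**Figure D1:**
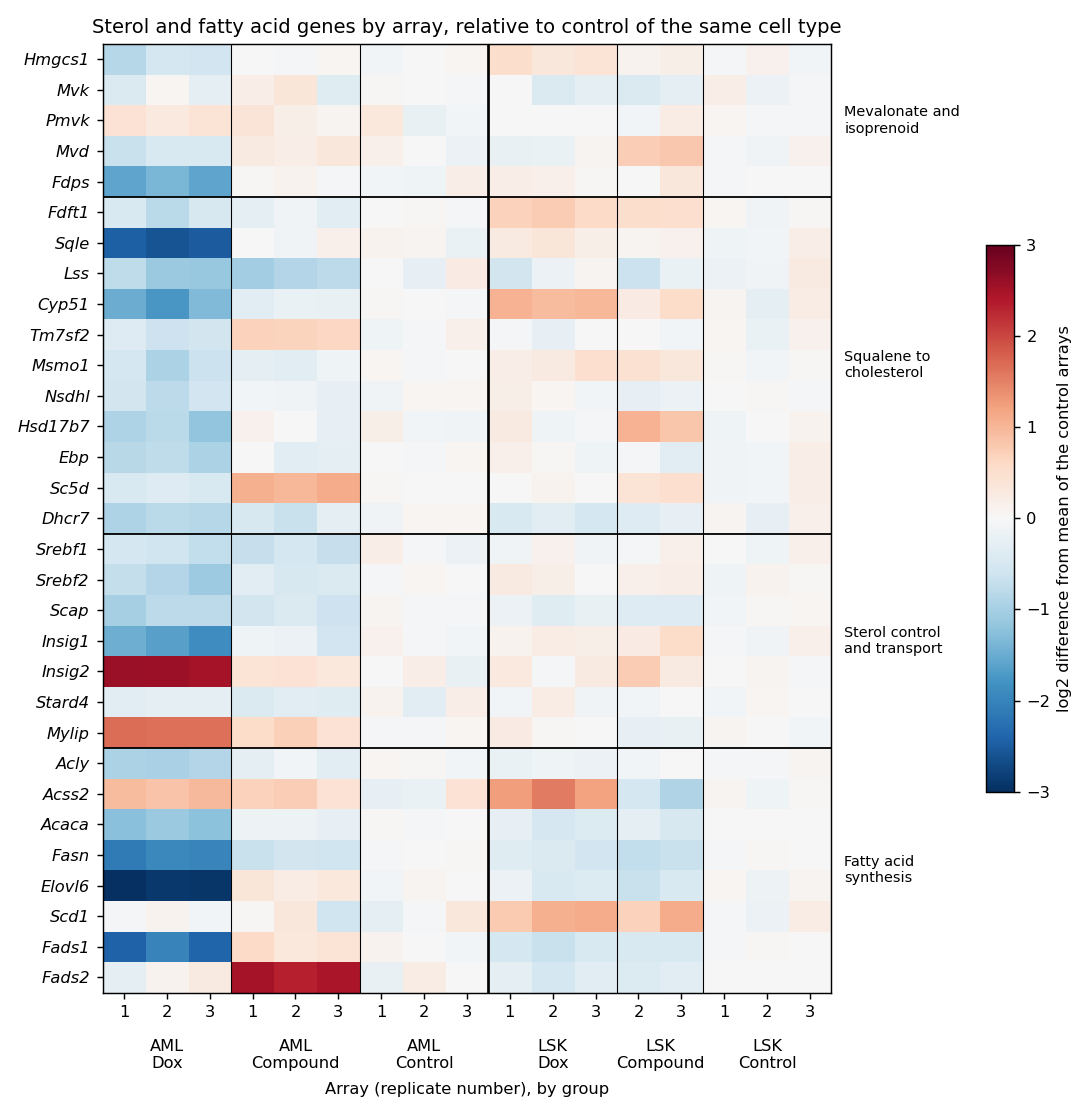
Difference of each array from the mean of the control arrays of its own cell type (log2, colour scale from -3 to 3), with 1 row per member in 4 role groups and 1 column per array. The AML Dox columns hold the strongest blue (Elovl6, Sqle, Fads1, Fasn) and the strongest red (Insig2), and are also red for Mylip. The AML Compound columns are red for Fads2, Sc5d and Tm7sf2, and the LSK columns are paler than the AML Dox columns for most members.

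In AML cells given Dox, most measured members of both pathways were lower, while the control genes Insig2 and Mylip were higher. Lower calls covered 11 of 11 genes from squalene onward and 3 of 5 mevalonate and isoprenoid genes, with 1 of the latter higher. They covered 5 of 8 fatty acid genes (1 higher) and 4 of 7 control and transport genes (2 higher). Of the 31 members, 23 fell and 4 rose (limma with Benjamini-Hochberg adjustment over all genes, adjusted p under 0.05), against 25.6% of all genes called lower and 23% called higher. The median log2 difference of the members was -0.71, against -0.01 over all genes tested. Using all 18 arrays in the fit, 13 members fell and 2 rose. The levels come from bulk RNA, in which fewer cells of a type and less RNA per cell cannot be told apart.

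From squalene onward, all 11 measured genes fell in AML Dox cells, by 0.43 to 2.51 on the log2 scale, against 25.6% of all genes called lower. Sqle, which adds oxygen to squalene and is a rate-limiting step of the pathway, read 3.70, 3.56 and 3.65 on the AML Dox arrays against 6.26, 6.24 and 5.96 on the AML Control arrays. The highest AML Dox array thus lay more than 2 log2 units under the lowest AML Control array, and the fitted difference was -2.51 (SE 0.11, adjusted p = 2.56e-12 by limma). Cyp51, the lanosterol demethylase, averaged 3.99 ± 0.21 in AML Dox cells and 5.51 ± 0.05 in AML Control cells (SD, n = 3 each). Lss, which closes the ring to lanosterol, fell by 1.0 (SE 0.18), and Hsd17b7, which works on the sterol ring after lanosterol, fell by 0.97 (SE 0.14). Dhcr7, the reductase that makes cholesterol in the last step, fell by 0.86 (SE 0.12), and the isomerase Ebp by 0.84 (SE 0.12). The smallest fall in this group was that of the sterol desaturase Sc5d, which averaged 5.45 ± 0.05 in AML Dox cells and 5.88 ± 0.03 in AML Control cells.

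The earlier mevalonate steps moved less evenly. Fdps, which makes farnesyl pyrophosphate, averaged 4.58 ± 0.12 in AML Dox cells and 6.09 ± 0.18 in AML Control cells, a fall of 1.51 (SE 0.11). Hmgcs1, which makes HMG-CoA, fell by 0.66 (SE 0.09), and Mvd, which makes isopentenyl pyrophosphate, fell by 0.52 (SE 0.11). Pmvk, the kinase between Mvk and Mvd in the pathway, was called higher at 0.38 (SE 0.12, adjusted p = 0.0164 by limma). That call was lost without AML Control replicate 2, AML Control replicate 3 or AML Dox replicate 1, with an adjusted p of up to 0.106. The mevalonate kinase Mvk did not pass the test, at -0.22 with a 95% interval of -0.58 to 0.14.

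Among the control genes, the 2 INSIG genes went opposite ways. Insig1, itself a target of SREBP, read 5.53, 5.36 and 5.12 on the AML Dox arrays against 7.11, 6.95 and 6.91 on the AML Control arrays, a fall of 1.65 (SE 0.13, adjusted p = 9.08e-09 by limma). Insig2, which also retains SCAP but is not driven by SREBP in the same way, read 6.75, 6.74 and 6.67 on the AML Dox arrays against 4.19, 4.37 and 3.95 on the AML Control arrays. Insig2 thus rose by 2.55 (SE 0.13), or 5.86-fold, and no other member rose further. Both SREBP genes fell: Srebf2, the main driver of the sterol steps, read 6.53, 6.36 and 6.14 on the AML Dox arrays against 7.18, 7.29 and 7.25 on the AML Control arrays. Srebf1, whose products drive mainly fatty acid genes, read 4.91, 4.84 and 4.70 on the AML Dox arrays against 5.64, 5.40 and 5.27 on the AML Control arrays. The fitted falls were 0.90 (SE 0.10) for Srebf2 and 0.62 (SE 0.11) for Srebf1, and neither pair of groups overlapped. Scap fell by 0.85 (SE 0.09). Mylip, a ubiquitin ligase that the sterol sensor LXR induces, read 5.71, 5.68 and 5.70 on the AML Dox arrays against 4.00, 4.01 and 4.10 on the AML Control arrays, a rise of 1.66 (SE 0.09). Stard4, a sterol carrier, did not pass the test at -0.28 (95% interval -0.53 to -0.03, adjusted p = 0.066 by limma). It passed on leaving out AML Control replicate 2 or LSK Dox replicate 2.

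The widest fall of all members was in fatty acid synthesis. Elovl6, which lengthens palmitate, read 4.34, 4.71 and 4.69 on the AML Dox arrays against 7.53, 7.69 and 7.62 on the AML Control arrays. Its level in AML Dox cells was 0.122 of that in AML Control cells (log2 difference -3.03, SE 0.11, adjusted p = 5.07e-13 by limma). Fasn, the fatty acid synthase, read 6.58, 6.75 and 6.72 on the AML Dox arrays against 8.64, 8.70 and 8.74 on the AML Control arrays, a fall of 2.01 (SE 0.08). Fads1, a desaturase of polyunsaturated fatty acids, read 4.19, 4.62 and 4.20 on the AML Dox arrays against 6.72, 6.60 and 6.52 on the AML Control arrays, a fall of 2.28 (SE 0.11). Acaca, which commits acetyl-CoA to fatty acids, fell by 1.20 (SE 0.08), and Acly, which makes acetyl-CoA from citrate, fell by 0.94 (SE 0.08). Acss2, which makes acetyl-CoA from acetate, went the other way and rose by 0.92 (SE 0.16). The desaturases Scd1 and Fads2 gave no call: Scd1 lay under the filter level on all 3 AML Dox arrays, and Fads2 read 2.49 to 3.06 on the AML Dox arrays against 2.57 to 3.02 on the AML Control arrays. Those Fads2 levels lie near the median of all probe sets on an array (2.65 to 2.75), where a fall could not have been seen.

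**Figure D2:**
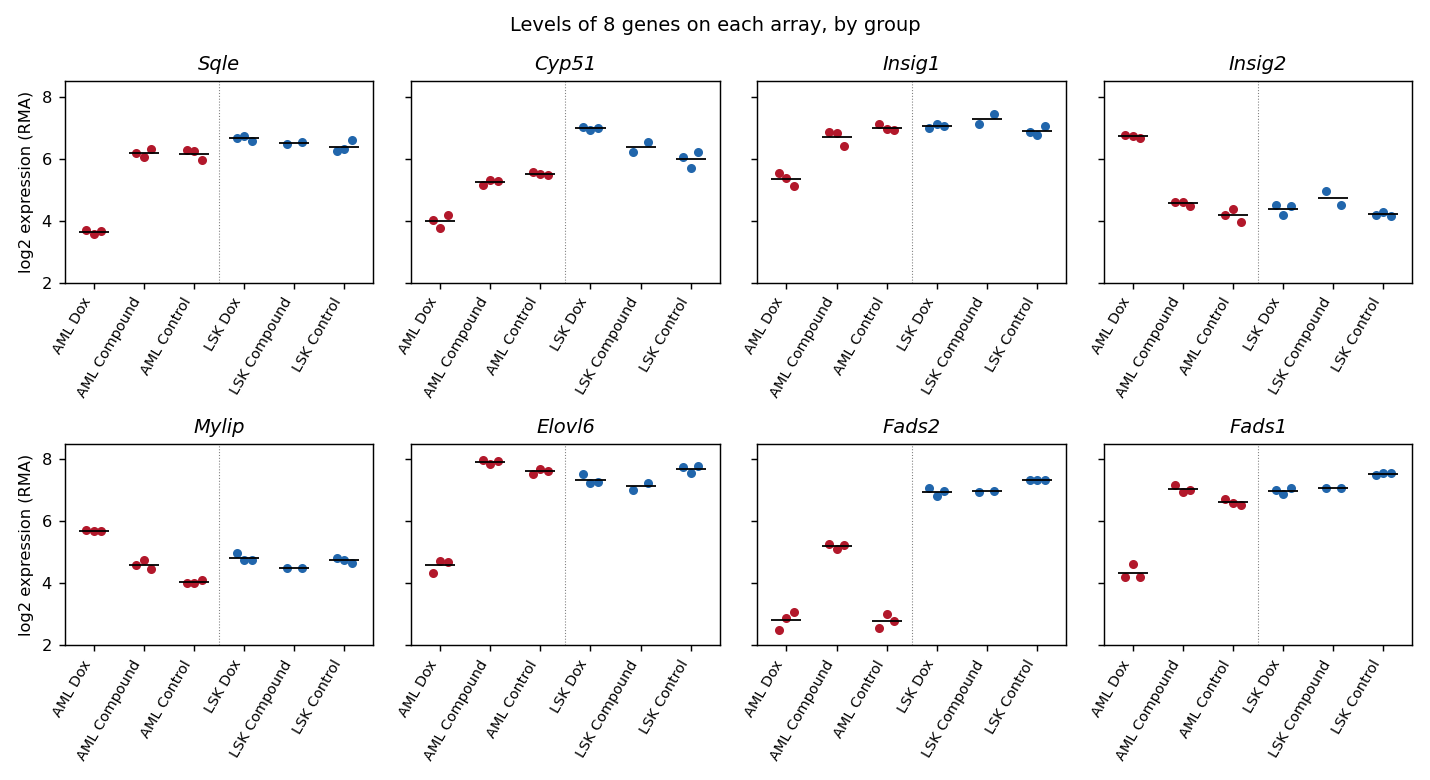
Log2 expression of 8 members on each array, with a panel per gene, a point per array and a bar at the group mean, for 3 arrays a group and 2 for LSK Compound. Sqle, Insig1, Elovl6 and Fads1 are lowest on the AML Dox arrays and Insig2 and Mylip highest there, Cyp51 is low on the AML Dox arrays and high on the LSK Dox arrays, and Fads2 is near 3 on the AML Dox and AML Control arrays, above 5 on the AML Compound arrays and near 7 on all LSK arrays.

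Promoter windows were looked up for the members because so many moved together. RefSeq windows of 300 bases (GRCm38.p6, 250 before to 50 after the start) were found for 27 of the 34 members, 35 windows in all. Fdps, Fdft1, Sqle, Stard4, Scd1, Scd2 and Fads1 had no window. The shares below thus leave out Sqle, Fads1 and Fdps, which fell by 2.51, 2.28 and 1.51 in AML Dox cells. They include Acat2 and Idi1, which were not measured. The sterol regulatory element TCACNCCAC, read on both strands, was in 1 of the 35 windows (2.86%), against 1.24% of all 32851 windows. CCAAT, the letters that NF-Y binds, was in 65.7% of the member windows against 37.4% of all windows, GGGCGG, an Sp1 motif, in 77.1% against 35.7%, and the E-box CACGTG in 17.1% against 7.15%. The full set of windows includes non-coding genes, and a match of letters is not a bound site. The 4 windows below are shown because Hmgcs1 holds the only TCACNCCAC match, Cyp51 moved in opposite directions under Dox in the 2 cell types, and Insig1 and Insig2 moved in opposite directions in AML Dox cells. Capitals mark TCACNCCAC and CCAAT on either strand, which do not overlap in these windows.
Hmgcs1 (chr13:119690101-119690400, plus strand): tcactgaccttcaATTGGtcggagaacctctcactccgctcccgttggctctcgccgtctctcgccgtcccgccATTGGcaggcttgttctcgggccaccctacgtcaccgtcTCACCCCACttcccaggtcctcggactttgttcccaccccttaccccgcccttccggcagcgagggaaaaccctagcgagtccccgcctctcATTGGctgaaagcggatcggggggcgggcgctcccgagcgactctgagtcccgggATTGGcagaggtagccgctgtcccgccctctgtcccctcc
Cyp51 (chr5:4104648-4104947, minus strand): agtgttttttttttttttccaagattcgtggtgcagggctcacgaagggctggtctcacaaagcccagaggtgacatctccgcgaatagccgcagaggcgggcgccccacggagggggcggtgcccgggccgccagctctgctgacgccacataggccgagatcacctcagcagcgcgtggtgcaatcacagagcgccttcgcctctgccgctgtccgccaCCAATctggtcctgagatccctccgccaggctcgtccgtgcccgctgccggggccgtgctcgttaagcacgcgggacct
Insig1 (chr5:28071162-28071461, plus strand): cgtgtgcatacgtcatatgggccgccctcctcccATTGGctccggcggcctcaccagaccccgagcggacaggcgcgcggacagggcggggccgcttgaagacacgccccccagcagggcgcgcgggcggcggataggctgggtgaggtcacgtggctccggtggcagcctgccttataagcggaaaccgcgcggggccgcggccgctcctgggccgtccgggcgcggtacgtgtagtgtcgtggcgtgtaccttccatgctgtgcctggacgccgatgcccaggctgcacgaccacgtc
Insig2 (chr1:121332540-121332839, minus strand, the most upstream of its 3 windows): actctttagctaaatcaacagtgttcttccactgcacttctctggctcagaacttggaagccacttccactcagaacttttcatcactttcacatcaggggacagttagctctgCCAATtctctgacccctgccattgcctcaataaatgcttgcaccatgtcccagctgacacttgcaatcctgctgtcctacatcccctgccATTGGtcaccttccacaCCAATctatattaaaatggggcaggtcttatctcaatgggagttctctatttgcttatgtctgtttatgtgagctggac
The Hmgcs1 window holds TCACCCCAC at position -137 from the start and 4 CCAAT matches. The Cyp51 window holds 1 CCAAT match and the Insig1 window also 1, whereas this Insig2 window holds 3 and the other 2 Insig2 windows none.

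Other genes of lipid metabolism moved in both directions in AML Dox cells. Of 9 other sterol genes tested, 4 fell and 2 rose. Lbr, a lamin receptor that is also a sterol reductase, fell by 2.26 (SE 0.09), and Npc2, which carries cholesterol out of lysosomes, rose by 1.73 (SE 0.09). Of 13 other fatty acid synthesis genes, 6 rose and 5 fell: the elongase Elovl7 rose by 3.67 (SE 0.12) and the malic enzyme Me1 by 2.84 (SE 0.17), while Elovl1 fell by 0.99 (SE 0.07). Of 8 LXR targets and sterol export genes, 3 rose and 1 fell. Abca1, the cholesterol exporter, read 6.66, 6.61 and 6.73 on the AML Dox arrays against 2.80, 3.13 and 2.65 on the AML Control arrays, a rise of 3.80 (SE 0.10). Of 12 fatty acid oxidation genes, 7 rose and 0 fell, led by the acyl-CoA dehydrogenase Acadl at 1.61 (SE 0.10). These lists are described by counts alone.

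Cell-cycle and progenitor genes moved in the same comparison. All 12 DNA replication genes fell in AML Dox cells, with a median of -2.94, and their summed linear level was 718 to 749 on the AML Dox arrays against 3670 to 3780 on the AML Control arrays. Of 5 progenitor markers tested, 3 fell and 2 rose, and the summed level over 6 measured markers was 100 to 109 on the AML Dox arrays against 532 to 564 on the AML Control arrays. Cd34 fell by 5.23 and Kit by 2.78, Flt3 also fell, and the 2 that rose were Mecom and Hlf. Mecom read 5.90, 6.07 and 5.77 on the AML Dox arrays against 5.33, 5.40 and 5.18 on the AML Control arrays. Slamf1 lay under the filter level in both groups. Of 5 macrophage markers, 2 fell and 1 rose, with a summed level of 74.9 to 89.3 on the AML Dox arrays against 203 to 215 on the AML Control arrays. Of 6 genes listed for MLL-AF9 leukemia cells, 3 rose (Hoxa9, Meis1 and Hoxa10) and 3 granule genes fell (Mpo, Ctsg and Elane). Hoxa9 read 9.14, 9.13 and 9.16 on the AML Dox arrays against 7.71, 7.86 and 7.89 on the AML Control arrays. The granule protease gene Ctsg fell by 6.10. The 6 genes summed to 1600 to 1650 on the AML Dox arrays against 4420 to 4540 on the AML Control arrays. The granule genes do not mark leukemia alone: Elane read 9.40, 9.26 and 9.40 on the LSK Control arrays. The part of these shifts in the lipid genes was not tested.

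In LSK cells given Dox members were called in both directions, and the sterol genes that were called mostly rose. Of the 31 members, 6 rose and 5 fell, against 9.21% of all genes called higher and 9.93% called lower, and the median difference was 0.02 (-0.05 over all genes tested). With all 18 arrays, 2 members rose and 0 fell (limma). Without LSK Control replicate 1, LSK Control replicate 3 or LSK Dox replicate 3, 3 members fell.

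The 6 genes that rose under Dox in LSK cells were 4 sterol genes, Acss2 and the desaturase Scd1. Acss2 read 5.37, 5.68 and 5.32 on the LSK Dox arrays against 4.20, 3.99 and 4.16 on the LSK Control arrays, a rise of 1.34 (SE 0.16, adjusted p = 1.12e-05 by limma). Cyp51 read 7.03, 6.93 and 6.98 on the LSK Dox arrays against 6.05, 5.68 and 6.20 on the LSK Control arrays, a rise of 1.0 (SE 0.13). Fdft1, the squalene synthase, read 7.87, 7.93 and 7.74 on the LSK Dox arrays against 7.24, 7.08 and 7.21 on the LSK Control arrays, a rise of 0.67 (SE 0.10). None of these groups overlapped. Scd1, a stearoyl-CoA desaturase, read 2.98, 3.27 and 3.31 on the LSK Dox arrays against 2.15, 2.03 and 2.42 on the LSK Control arrays. These control values lay under or close to the filter level of 2.32 to 2.41. Hmgcs1 rose by 0.43 (SE 0.09). Msmo1, which oxidises methyl groups of the sterol ring, was called at 0.32 (SE 0.11), and that call was lost on leaving out any of 12 single arrays (adjusted p up to 0.209 by limma).

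The 5 members that fell in LSK Dox cells were mostly fatty acid genes. Fasn read 7.89, 7.82 and 7.68 on the LSK Dox arrays against 8.19, 8.30 and 8.28 on the LSK Control arrays, a fall of 0.46 (SE 0.08). Fads1 read 7.01, 6.87 and 7.08 on the LSK Dox arrays against 7.48, 7.56 and 7.54 on the LSK Control arrays, a fall of 0.54 (SE 0.11). Acaca fell by 0.39 (SE 0.08). The calls of Elovl6 (-0.35, SE 0.11) and Dhcr7 (-0.44, SE 0.12) were less stable: Elovl6 lost its call on leaving out any of 7 single arrays and Dhcr7 on leaving out any of 3, with adjusted p up to 0.153 and 0.0663 (limma).

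None of the 7 control and transport genes was called in LSK Dox cells (limma), and 1 had an unadjusted p under 0.05. Of all genes, 9.21% were called higher and 9.93% lower, and none of 7 is not far from those shares. Insig1 read 6.99, 7.10 and 7.06 on the LSK Dox arrays against 6.84, 6.77 and 7.05 on the LSK Control arrays, and Insig2 read 4.50, 4.18 and 4.47 on the LSK Dox arrays against 4.19, 4.29 and 4.15 on the LSK Control arrays. Both sets of groups overlapped. The 95% intervals were -0.12 to 0.45 for Insig1 and -0.10 to 0.44 for Insig2. Srebf2 gave 7.73, 7.63 and 7.47 on the LSK Dox arrays against 7.34, 7.56 and 7.49 on the LSK Control arrays, and Srebf1 gave 4.86, 5.09 and 4.85 on the LSK Dox arrays against 4.96, 4.83 and 5.11 on the LSK Control arrays. For both SREBP genes the groups overlapped. Among the other lipid genes, Abca1 rose by 3.09 (SE 0.10) and Me1 by 1.87 (SE 0.17), and 2 of 12 fatty acid oxidation genes rose and 0 fell. Of the 12 DNA replication genes 5 fell, with a median of -0.26. Progenitor markers summed to 1180 to 1210 on the LSK Dox arrays against 1500 to 1550 on the LSK Control arrays (2 of 5 higher, 2 lower), and neutrophil markers to 552 to 622 on the LSK Dox arrays against 816 to 915 on the LSK Control arrays (4 of 6 lower). The 6 leukemia-list genes summed to 934 to 1010 on the LSK Dox arrays against 1820 to 2130 on the LSK Control arrays. The granule genes Mpo, Ctsg and Elane were the 3 lower, and Meis1 was the 1 higher. Their part in the lipid genes was not tested.

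The difference between the cell types in the Dox response was then tested as an interaction, AML response minus LSK response. It was below 0 for 23 members and above 0 for 2 at adjusted p under 0.05 (limma), against 21.5% and 18.6% of all genes. The counts called with all 18 arrays were 4 below 0 and 2 above. The median over the members was -0.78, against 0 over all genes tested. Sqle had the widest gap, at -2.79 (SE 0.15), since it fell in AML cells and differed by 0.27 (SE 0.11, not called) in LSK cells. Elovl6 followed at -2.69 (SE 0.16) and Cyp51 at -2.52 (SE 0.18).

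Several sterol genes had opposite calls in the 2 cell types under Dox. Cyp51 read 4.02, 3.76 and 4.18 on the AML Dox arrays against 5.55, 5.51 and 5.46 on the AML Control arrays, while it rose in LSK cells as given above. Fdft1 fell by 0.58 (SE 0.10) in AML cells and rose by 0.67 in LSK cells, an AML-minus-LSK difference of -1.25 (SE 0.14). Hmgcs1 gave an interaction of -1.09 (SE 0.13) and Msmo1 of -1.03 (SE 0.15) with the same opposite calls. Insig2 at 2.38 (SE 0.18) and Mylip at 1.57 (SE 0.13) were the 2 members with a higher response in AML cells. Acss2 rose in both cell types, and its interaction of -0.42 (SE 0.23) was not called, with a 95% interval of -0.90 to 0.06. The calls of Mvd (-0.41), Lss (-0.78) and Tm7sf2 (-0.42) were lost on leaving out 9, 3 and 6 single arrays in turn, with adjusted p up to 0.125 (limma).

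**Figure D3:**
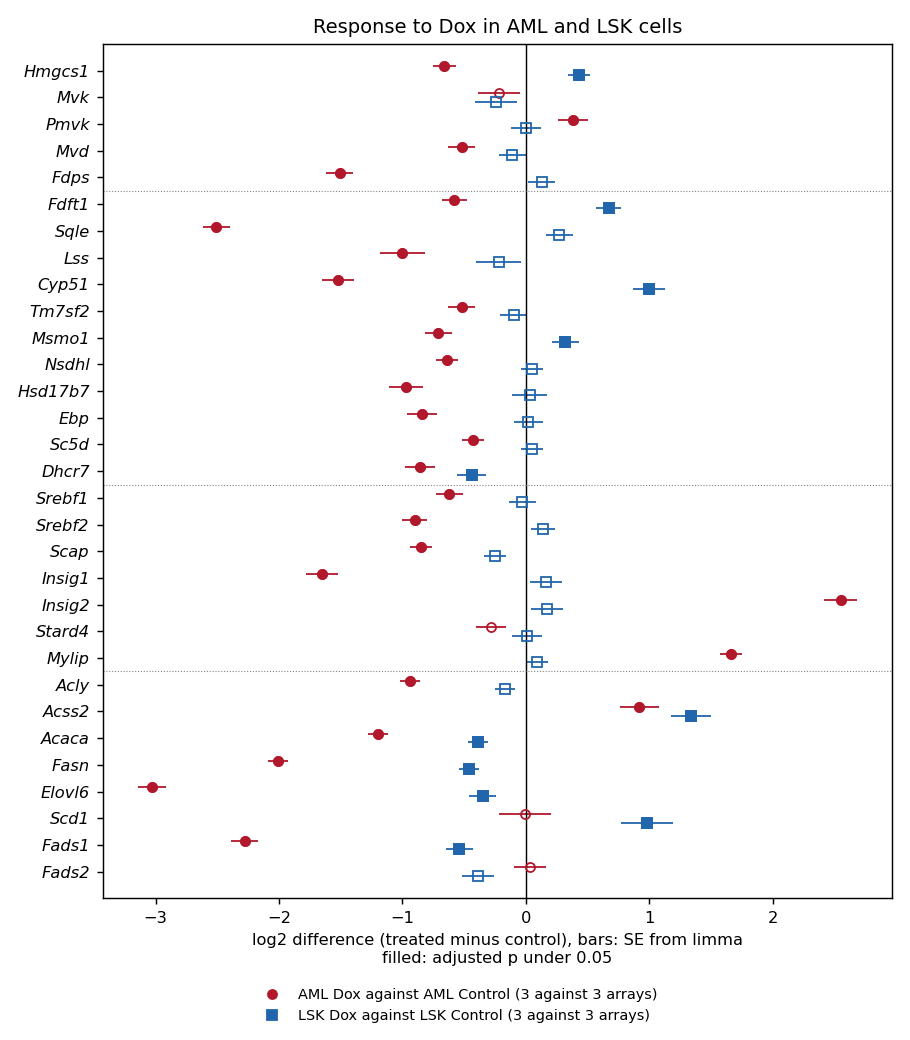
Log2 difference between Dox and control arrays for each member, in AML cells (circles) and in LSK cells (squares), with bars of 1 SE from limma and filled points for adjusted p under 0.05. Most circles lie left of 0 and most squares near 0, and Cyp51, Fdft1, Hmgcs1 and Msmo1 have filled points on opposite sides.

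The compound mix in AML cells gave a mixed picture, led by a rise of Fads2. Of the 31 members, 7 rose and 8 fell, against 12.8% of all genes called higher and 19.2% called lower, and the median difference was -0.07 (-0.03 over all genes tested). With all 18 arrays, 2 members rose and 2 fell (limma). Fads2, which carries out the first desaturation of polyunsaturated fatty acids, read 5.28, 5.11 and 5.23 on the AML Compound arrays against 2.57, 3.02 and 2.77 on the AML Control arrays. The groups were far apart, with a rise of 2.42 (SE 0.13, adjusted p = 4.06e-10 by limma). The AML Control level lay near the median of all probe sets on an array (2.65 to 2.75), where signal is low, so the rise may be understated and is given without a fold. Fads1, its neighbour on chromosome 19, rose by 0.43 (SE 0.11).

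In the sterol steps 2 of the 11 genes from squalene onward were called higher and 2 lower. These counts lie near the shares of all genes, 12.8% called higher and 19.2% called lower. Sc5d read 6.95, 6.88 and 6.99 on the AML Compound arrays against 5.91, 5.86 and 5.88 on the AML Control arrays, a rise of 1.06 (SE 0.09). Tm7sf2, a sterol reductase, read 5.78, 5.76 and 5.71 on the AML Compound arrays against 4.97, 5.06 and 5.24 on the AML Control arrays, a rise of 0.66 (SE 0.11). Lss fell by 0.90 (SE 0.18) and Dhcr7 by 0.48 (SE 0.12). Sqle, which fell furthest of the sterol genes under Dox, differed by 0.02 here, with a 95% interval of -0.21 to 0.25. None of the 5 mevalonate and isoprenoid genes was called (limma), and 1 had an unadjusted p under 0.05. With 5 genes, this too is not far from the shares of all genes.

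The SREBP genes and Scap fell in AML Compound cells. Srebf1 read 4.75, 4.90 and 4.74 on the AML Compound arrays against 5.64, 5.40 and 5.27 on the AML Control arrays, a fall of 0.64 (SE 0.11). Srebf2 read 6.92, 6.77 and 6.81 on the AML Compound arrays against 7.18, 7.29 and 7.25 on the AML Control arrays, a fall of 0.40 (SE 0.10). Scap read 6.96, 7.08 and 6.89 on the AML Compound arrays against 7.60, 7.48 and 7.45 on the AML Control arrays. All 3 genes were lower on every AML Compound array than on any AML Control array. Mylip rose, with 4.59, 4.75 and 4.46 on the AML Compound arrays against 4.00, 4.01 and 4.10 on the AML Control arrays. Insig1, at 6.87, 6.82 and 6.42 on the AML Compound arrays against 7.11, 6.95 and 6.91 on the AML Control arrays, did not pass the test. Insig2 read 4.59, 4.60 and 4.48 on the AML Compound arrays against 4.19, 4.37 and 3.95 on the AML Control arrays. Its call at 0.39 (SE 0.13) was lost on leaving out any of 4 single arrays, and that of Stard4 at -0.38 (SE 0.12) on leaving out any of 3, with adjusted p up to 0.143 and 0.125 (limma).

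Among the fatty acid genes Fasn read 8.02, 8.15 and 8.09 on the AML Compound arrays against 8.64, 8.70 and 8.74 on the AML Control arrays, a fall of 0.61 (SE 0.08). Acss2 rose by 0.62 (SE 0.16), although replicate 3 of AML Control, at 3.56, lay above the lowest AML Compound array at 3.55. Acly was called lower at -0.23 (SE 0.08), but the call was lost on leaving out any of 14 single arrays (adjusted p up to 0.156 by limma). Elovl6 differed by 0.31 (SE 0.11) and did not pass, at an adjusted p of 0.0506 (limma). Of the other lipid genes, Npc2 rose by 0.94 (SE 0.09) and Me1 by 1.40 (SE 0.17), and of 12 fatty acid oxidation genes 2 rose and 4 fell. Macrophage markers moved in this comparison: 4 of 5 rose, with Adgre1 up by 3.57, and their summed level was 1490 to 1790 on the AML Compound arrays against 203 to 215 on the AML Control arrays, where Mrc1 lay under the filter level. Progenitor markers summed to 790 to 818 on the AML Compound arrays against 532 to 564 on the AML Control arrays (3 of 5 higher), neutrophil markers to 377 to 498 on the AML Compound arrays against 38.6 to 42.0 on the AML Control arrays (1 of 6 higher, Mmp8, and 1 lower), and all 12 DNA replication genes fell, with a median of -0.77. Of the 6 leukemia-list genes 4 fell, the granule genes Mpo, Ctsg and Elane among them, and 1 rose. The 6 summed to 1460 to 1770 on the AML Compound arrays against 4420 to 4540 on the AML Control arrays. The Y-linked genes Eif2s3y, Kdm5d and Uty were called higher by 0.46, 0.40 and 0.44, at levels of at most 2.67. Their part in the lipid genes was not tested.

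In LSK cells the compound mix was measured on 2 arrays, and sterol genes that were called mostly rose while fatty acid genes mostly fell. Of the 31 members, 9 rose and 6 fell, against 14.2% of all genes called higher and 20% called lower, with a median of -0.03 (-0.05 over all genes tested). With LSK Compound replicate 1 in the fit, 2 members rose and 4 fell, and the values of Fdft1, Cyp51, Msmo1, Sc5d and Insig1 changed sign to -0.42, -0.79, -0.66, -0.76 and -0.08. Sex cannot be told apart from treatment in any comparison that uses these 2 arrays, the difference in compound response and LSK Dox against LSK Compound included. Eif2s3y, Kdm5d and Uty, all Y-linked, were higher on them than on the LSK Control arrays by 3.56, 2.51 and 3.41. The members Ebp and Nsdhl are X-linked, and neither was called (-0.18, SE 0.13, and -0.21, SE 0.11). The part of sex in the member values was not tested.

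Hsd17b7 read 6.25 and 6.03 on the 2 LSK Compound arrays against 5.07, 5.21 and 5.31 on the LSK Control arrays, a rise of 0.94 (SE 0.15, adjusted p = 8.88e-05 by limma). Mvd read 5.56 and 5.63 on the LSK Compound arrays against 4.79, 4.71 and 4.96 on the LSK Control arrays, a rise of 0.78 (SE 0.12). Fdft1 read 7.70 and 7.68 on the LSK Compound arrays against 7.24, 7.08 and 7.21 on the LSK Control arrays, a rise of 0.52 (SE 0.11). In each case both LSK Compound arrays lay above all 3 controls. Sc5d read 6.45 and 6.53 on the LSK Compound arrays against 5.93, 5.95 and 6.23 on the LSK Control arrays, a rise of 0.45 (SE 0.10). Fasn fell by 0.70 (SE 0.09), with 7.53 and 7.58 on the LSK Compound arrays against 8.19, 8.30 and 8.28 on the LSK Control arrays. Elovl6 fell by 0.56 (SE 0.13), with 7.02 and 7.24 on the LSK Compound arrays against 7.75, 7.54 and 7.78 on the LSK Control arrays. The fatty acid genes that fell also included Fads1 at -0.46 (SE 0.13).

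Among the control genes in LSK Compound cells, Insig1 read 7.13 and 7.44 on the LSK Compound arrays against 6.84, 6.77 and 7.05 on the LSK Control arrays. Insig2 read 4.96 and 4.49 on the LSK Compound arrays against 4.19, 4.29 and 4.15 on the LSK Control arrays. Both were called higher, at 0.40 (SE 0.15) and 0.52 (SE 0.14). Without LSK Compound replicate 3 the Insig1 call was lost at 0.24 (adjusted p = 0.412 by limma), and without LSK Compound replicate 2 the Insig2 call was lost at 0.28 (adjusted p = 0.207 by limma). Srebf2 read 7.62 and 7.67 on the LSK Compound arrays against 7.34, 7.56 and 7.49 on the LSK Control arrays, and Srebf1 read 4.93 and 5.11 on the LSK Compound arrays against 4.96, 4.83 and 5.11 on the LSK Control arrays. Neither SREBP gene was called. Scap, the only member with 2 probe sets, fell by 0.39 (SE 0.10) on its brighter probe set, and the mean of both gave -0.13 with no call.

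Leaving out 1 of the 2 LSK Compound arrays leaves a lone array, which is then assumed to vary like the arrays of the other groups. Without LSK Compound replicate 3, Cyp51 gave 0.24 in place of 0.40, Acss2 -0.53 in place of -0.72, Acaca -0.31 in place of -0.39 and Scd1 0.68 in place of 0.89. All 4 kept their direction and lost their calls, with an adjusted p of 0.401, 0.0963, 0.0658 and 0.103 (limma). Msmo1 (0.39) lost its call without LSK Control replicate 2 or LSK Compound replicate 2, and Cyp51 and Insig1 did so on leaving out any of 12 and 11 single arrays. Of the other lipid genes, Npc2 rose by 1.04 (SE 0.10) and the sterol exporter Abcg1 fell by 1.46 (SE 0.18). All 12 DNA replication genes fell, with a median of -0.97. Macrophage markers summed to 1020 to 1090 on the LSK Compound arrays against 447 to 496 on the LSK Control arrays, with 2 of 5 higher and 1 lower. Neutrophil markers summed to 416 to 426 on the LSK Compound arrays against 816 to 915 on the LSK Control arrays, with 5 of 6 lower and 1 higher. The 6 leukemia-list genes summed to 345 to 351 on the LSK Compound arrays against 1820 to 2130 on the LSK Control arrays. Of these 4 were lower, the granule genes Mpo, Ctsg and Elane among them. Progenitor markers summed to 1140 to 1180 on the LSK Compound arrays against 1500 to 1550 on the LSK Control arrays, with 1 of 5 higher and 2 lower. Their part in the lipid genes was not tested.

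The compound response differed between the cell types for 16 members, with 7 interactions above 0 and 9 below (limma, adjusted p under 0.05), against 8.69% and 8.37% of all genes. The counts with all 18 arrays were 1 above 0 and 0 below. Fads2 had the widest gap at 2.80 (SE 0.20), a value limited by its low signal in AML Control cells, since it rose in AML cells and differed by -0.38 (SE 0.15, not called) in LSK cells. Acss2 gave 1.34 (SE 0.24), Fads1 0.90 (SE 0.17), Elovl6 0.87 (SE 0.17) and Mylip 0.81 (SE 0.14). Acss2 and Fads1 were called higher in AML cells and lower in LSK cells. On the other side were Hsd17b7 at -0.98 (SE 0.20) and Fdft1 at -0.75 (SE 0.15). Without LSK Compound replicate 3 the count below 0 was 3, and without LSK Control replicate 2 it was 5. The calls of Mvd (-0.51), Scd1 (-0.96), Insig1 (-0.69) and Cyp51 (-0.66) were lost on leaving out any of 10, 10, 5 and 4 single arrays, those of Srebf1 (-0.69) and Srebf2 (-0.59) without LSK Compound replicate 3, and that of Msmo1 (-0.63) without LSK Compound replicate 2.

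**Figure D4:**
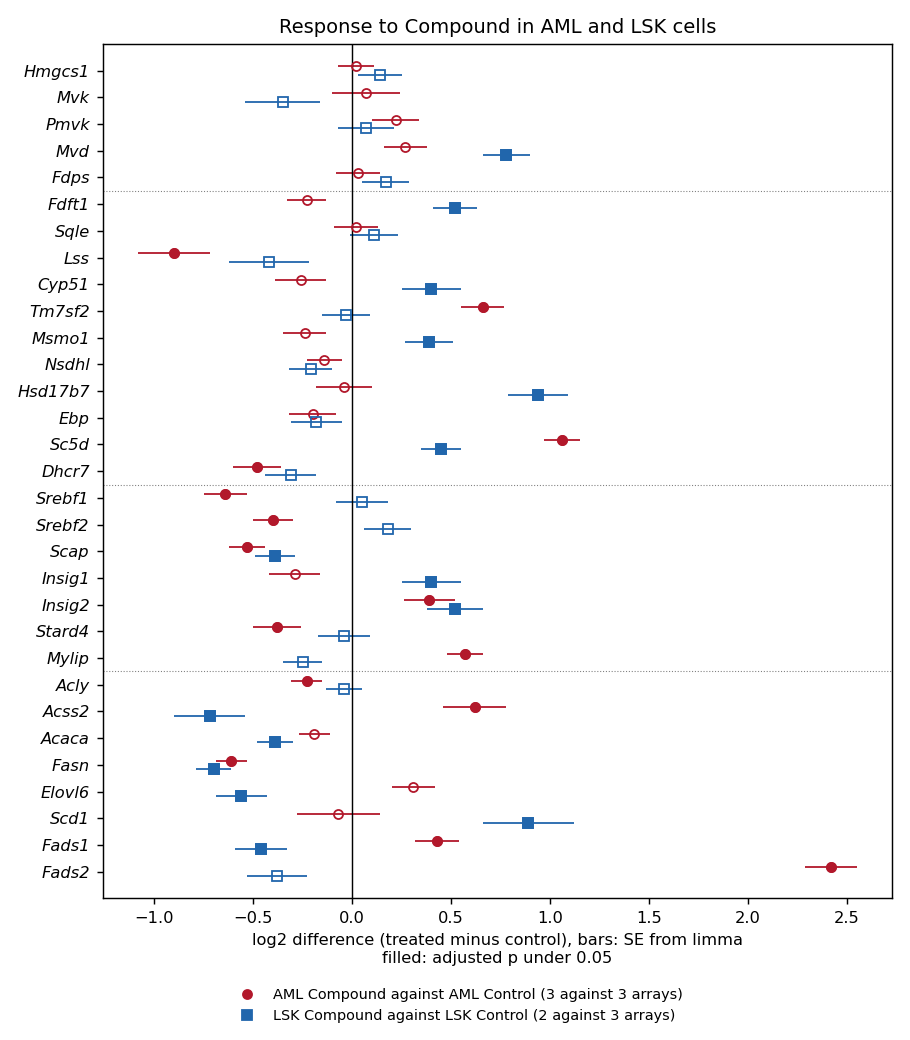
Log2 difference between compound and control arrays for each member, in AML cells (circles, 3 against 3 arrays) and in LSK cells (squares, 2 against 3 arrays), with bars of 1 SE from limma and filled points for adjusted p under 0.05. The circle of Fads2 lies at 2.42, and all other points lie between about -0.90 and 1.06.

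Dox and the compound mix in AML cells share their control arrays, so the treated groups were compared directly. In AML Dox cells 22 members were lower and 2 higher than in AML Compound cells (limma), against 24.7% and 23% of all genes, with a median of -0.64 (-0.01 over all genes tested). In the fit of all 18 arrays 9 were lower and 2 higher. Elovl6 read 4.34, 4.71 and 4.69 on the AML Dox arrays against 7.98, 7.84 and 7.94 on the AML Compound arrays, a difference of -3.34 (SE 0.11). Fads1 differed by -2.71 (SE 0.11), Sqle by -2.54 (SE 0.11), Fads2, at low signal in AML Dox cells, by -2.39 (SE 0.13) and Sc5d by -1.49 (SE 0.09). Insig2 was higher by 2.16 (SE 0.13) and Mylip by 1.10 (SE 0.09). Srebf1 differed by 0.02, with a 95% interval of -0.22 to 0.26. The calls of Fdft1 (-0.35) and Dhcr7 (-0.39) were each lost on leaving out 1 array, AML Dox replicate 2 and AML Compound replicate 3 in turn, and Scap (-0.32) lost its call on the mean of its 2 probe sets. All 12 DNA replication genes were lower in AML Dox cells, with a median of -2.14, and 4 of 5 macrophage markers were lower, summing to 74.9 to 89.3 on the AML Dox arrays against 1490 to 1790 on the AML Compound arrays. Their part in the lipid genes was not tested.

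In LSK cells, 4 members were higher and 3 lower with Dox than with the compounds, against 18% and 14.3% of all genes (limma), and with all 18 arrays 1 was higher and 1 lower. Acss2 had the widest gap, at 5.37, 5.68 and 5.32 on the LSK Dox arrays against 3.58 and 3.21 on the LSK Compound arrays, a difference of 2.06 (SE 0.18). Cyp51 was higher by 0.60 (SE 0.15) and Mylip by 0.34 (SE 0.10). Mvd (-0.89, SE 0.12), Hsd17b7 (-0.92, SE 0.15) and Sc5d (-0.41, SE 0.10) were lower with Dox. Hmgcs1 was called at 0.29 and lost the call on leaving out any of 13 single arrays, Mylip on leaving out any of 3, and Cyp51 without LSK Compound replicate 2. With LSK Compound replicate 1 in the fit, Sc5d changed sign to 0.80. The count of members higher with Dox was 2 without LSK Dox replicate 1 or without LSK Compound replicate 3, and 1 without LSK Compound replicate 2. All 12 DNA replication genes were higher with Dox, with a median of 0.68, and macrophage markers summed to 552 to 630 on the LSK Dox arrays against 1020 to 1090 on the LSK Compound arrays (1 of 5 higher, 1 lower). Their part in the lipid genes was not tested.

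Before treatment, the leukemia cells differed from the normal cells most in Fads2, and members were called in both directions. In AML Control cells 7 members were higher and 9 lower than in LSK Control cells (limma), against 15.4% and 14.2% of all genes, with a median of -0.05 (0 over all genes tested). With all 18 arrays 2 were higher and 2 lower. Fads2 read 2.57, 3.02 and 2.77 on the AML Control arrays against 7.33, 7.34 and 7.34 on the LSK Control arrays, a difference of -4.55 (SE 0.13). The AML Control level lay near the median of all probe sets (2.65 to 2.75), so the difference may understate the gap and is given without a fold. Fads1 read 6.72, 6.60 and 6.52 on the AML Control arrays against 7.48, 7.56 and 7.54 on the LSK Control arrays, lower by 0.92 (SE 0.11). Fads3, the third desaturase gene of this chromosome 19 cluster, read 3.54, 3.33 and 3.41 on the AML Control arrays against 5.81, 5.70 and 5.70 on the LSK Control arrays. In all 3 genes the groups were apart.

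Further along the pathways, Nsdhl, which works on the sterol ring, read 6.35, 6.52 and 6.53 on the AML Control arrays against 7.21, 7.26 and 7.18 on the LSK Control arrays, a difference of -0.75 (SE 0.09). Mylip read 4.00, 4.01 and 4.10 on the AML Control arrays against 4.81, 4.74 and 4.65 on the LSK Control arrays. Acss2 was lower in AML Control cells by 0.99 (SE 0.16). Acly was higher in AML Control cells and read 8.77, 8.75 and 8.64 on the AML Control arrays against 8.06, 8.02 and 8.18 on the LSK Control arrays, and Acaca and Fasn were higher by 0.48 (SE 0.08) and 0.44 (SE 0.08). Tm7sf2 was higher by 0.77 (SE 0.11), with 4.97, 5.06 and 5.24 on the AML Control arrays against 4.39, 4.12 and 4.46 on the LSK Control arrays.

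Of the SREBP genes, Srebf1 was higher in AML Control cells by 0.47 (SE 0.11), and Srebf2 differed by -0.22 (SE 0.10, not called). The INSIG genes gave 0.10 (95% interval -0.18 to 0.39) for Insig1 and -0.04 (95% interval -0.31 to 0.23) for Insig2. The calls of Cyp51 (-0.47) and Msmo1 (-0.31) were lost on leaving out 1 array (LSK Control replicate 3) and any of 5 arrays. Neutrophil markers, all 6 of them lower in AML Control cells, summed to 38.6 to 42.0 on the AML Control arrays against 816 to 915 on the LSK Control arrays, and S100a9 and Camp lay under the filter level in AML Control cells. Xist was 2.38 to 2.63 on the AML Control arrays against 9.28 to 9.56 on the LSK Control arrays. The Y-linked genes Eif2s3y, Kdm5d and Uty lay under the filter level in both groups, so these transcripts do not give the sex of the AML cells. Progenitor markers, 4 of 5 lower and 1 higher, summed to 532 to 564 on the AML Control arrays against 1500 to 1550 on the LSK Control arrays, and macrophage markers, 3 of 5 lower and 1 higher, to 203 to 215 on the AML Control arrays against 447 to 496 on the LSK Control arrays. All 6 leukemia markers were higher in AML Control cells, summing to 4420 to 4540 on the AML Control arrays against 1820 to 2130 on the LSK Control arrays. The part of cell makeup and sex in these differences was not tested.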

How the data were processed

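RNA of 18 mouse samples was measured on whole-transcript arrays, 3 in each of 6 groups. The deposited table holds log2 expression values that the authors made with RMA, as listed per the submitters' processing notes. The version of RMA was not stated, and the values were not scaled again. Of 41345 probe sets, 23521 mapped to a single gene in the platform annotation, 1814 to several and 16010 were not listed; 23328 of the first kind matched a RefSeq gene. The probe set with the highest mean stood for each of 22180 genes, and 16337 genes lay above the 40th percentile of the array on at least 3 arrays. Tests were made on the log2 values with limma 3.58.1 in R 4.3.3: 1 mean per group over 17 arrays (LSK Compound replicate 1 left out), 9 comparisons, empirical Bayes variances, and Benjamini-Hochberg adjustment over the 16337 genes at 0.05. The script was tested on simulated data. The number of arrays limits the precision, and the median standard error of a treatment difference was 0.124. Same-numbered arrays did not deviate together (r from -0.114 to 0.104 over 40 pairs, 1 of them over 0.1), so numbers were not used as pairs. No 2 arrays held the same values. Groups came from the sample titles. Genes named are all members by role, with array values for the 6 of smallest p per comparison and for Insig1, Insig2, Srebf1 and Srebf2; other lists are given as counts with a few examples. The members and lists were chosen with earlier results of these data known. Alternatives were other arrays, scalings, filters, probe-set rules and variance models, and each array left out.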

Additional observations from a re-analysis of the deposited data

Results flagged for a closer look

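The Dox response differed between AML and LSK cells, by the test of the difference itself (limma, AML minus LSK, log2), for 25 members. Among the mevalonate genes the values were -1.09 for Hmgcs1, -0.41 for Mvd and -1.64 for Fdps. From squalene onward they were -1.25 for Fdft1, -2.79 for Sqle, -0.78 for Lss, -2.52 for Cyp51, -0.42 for Tm7sf2, -1.03 for Msmo1, -0.69 for Nsdhl, -1.0 for Hsd17b7, -0.86 for Ebp and -0.47 for Sc5d. Among the control genes they were -0.58 for Srebf1, -1.04 for Srebf2, -0.60 for Scap, -1.82 for Insig1, 2.38 for Insig2 and 1.57 for Mylip. Among the fatty acid genes they were -0.76 for Acly, -0.81 for Acaca, -1.55 for Fasn, -2.69 for Elovl6, -0.99 for Scd1 and -1.73 for Fads1.

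The compound response differed between AML and LSK cells by the same kind of test for 16 members, with 2 arrays for LSK Compound, which also differ from the LSK Control arrays in Y-linked transcripts. The sterol genes gave -0.51 for Mvd, -0.75 for Fdft1, -0.66 for Cyp51, 0.69 for Tm7sf2, -0.63 for Msmo1, -0.98 for Hsd17b7 and 0.60 for Sc5d. The control genes gave -0.69 for Srebf1, -0.59 for Srebf2, -0.69 for Insig1 and 0.81 for Mylip. The fatty acid genes gave 1.34 for Acss2, 0.87 for Elovl6, -0.96 for Scd1, 0.90 for Fads1 and 2.80 for Fads2.

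On LSK Compound replicate 1, the array left out of the comparisons, 5 members read above every LSK Control array.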

How the results depend on the processing

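With all 18 arrays the members called higher, lower and all genes called were 2, 13 and 4253 in AML Dox against AML Control (17 arrays: 4, 23 and 7935), 2, 2 and 1074 in AML Compound against AML Control (7, 8 and 5232), 2, 0 and 608 in LSK Dox against LSK Control (6, 5 and 3127), 1, 0 and 524 for the compound response (7, 9 and 2786), 2, 2 and 1439 in AML Control against LSK Control (7, 9 and 4828) and 1, 1 and 2545 in LSK Dox against LSK Compound (4, 3 and 5283). Also with 18 arrays, LSK Compound against LSK Control gave 2 members higher and 2937 genes (9 and 5590), the Dox response 4 members lower and 2240 genes (23 and 6547), and AML Dox against AML Compound 9 members lower and 3898 genes (22 and 7791). Signs turned there for Fdft1 (-0.42), Cyp51 (-0.79), Msmo1 (-0.66), Sc5d (-0.76) and Insig1 (-0.08) in LSK Compound, for Fdft1 (0.19), Cyp51 (0.53), Msmo1 (0.42) and Srebf2 (0.51) in the compound response, and for Sc5d (0.80) in LSK Dox against LSK Compound. Array quality weights were fitted on all 18 arrays, LSK Compound replicate 1 included. They gave 12 members lower and 8533 genes in LSK Compound and 4736 genes in the compound response. In LSK Dox against LSK Compound they gave 8 members higher and 8462 genes. That comparison had 2 members higher when its groups were compared alone, without LSK Compound replicate 1. In the unweighted fit of 18 arrays all groups share the estimate of a gene's spread. LSK Compound replicate 1 thus enters that estimate in every comparison, but not the log2 differences between groups other than LSK Compound. How far this accounts for the changed counts was not tested.

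Leaving out single arrays gave 3 to 7 members lower in LSK Dox, 3 to 9 below 0 in the compound response and 1 to 5 higher in LSK Dox against LSK Compound. With the replicate block, which pairs arrays by number alone, 4 members were higher and 23 lower in AML Dox, with 7886 genes called, and the other counts of members moved by at most 2. Median centring, quantile normalization and the filters moved no count of members by over 1.5 times. Low signal limits the differences of Scd1, under or near the filter level (2.32 to 2.41) in AML cells and in LSK Control cells. It also limits those of Fads2 in AML Dox and AML Control cells.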
